A study of Rattus norvegicus with 6 samples.

Results

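The cytosolic ribosomal protein genes were followed in rat liver after nitrilotriacetic acid, in 3 treated and 3 vehicle rats. They were taken as the genes of the rat RefSeq table whose symbol is Rpl, Rps or Rplp followed by a number and at most 1 letter. Of 78 such genes, 47 of the large and 31 of the small subunit, 73 had at least 1 probe on the array, 45 large and 28 small, out of 15284 named genes with a probe. The other 5 had no matched probe and were not analysed here. All 73 were well above background on every array and were tested.

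Liver total RNA of male Sprague-Dawley (Crl:CD(SD)) rats, bought at 5 weeks of age, was hybridised to one-colour Agilent arrays. In the treated group each rat received nitrilotriacetic acid trisodium monohydrate (NTA, a chelator of metal ions) at 1000 mg/kg/day. The control group received a vehicle that the labels call purified water in one place and corn oil in another. The duration is given as 28 days in the series design and as 9 weeks in the treatment protocol; neither point was settled here. Each array was taken as 1 rat, since the protocol speaks of 3 animals per treatment. All 6 rats were of the same strain and sex, and no genetic change is named for either group.

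Each ribosome is built from ribosomal RNA and a large set of small, mostly basic proteins, nearly all of them present as a single copy. The mRNAs of these proteins are among the most abundant in liver, a tissue that makes and secretes large amounts of protein. Nearly all of them start at a cytosine followed by a run of pyrimidines, the 5′ terminal oligopyrimidine (TOP) tract, through which the kinase mTOR and the binding protein LARP1 control their translation together. That control acts mainly on translation, which RNA abundance does not measure, and LARP1 can also stabilise these mRNAs. These genes also have many processed pseudogenes in mammalian genomes, and binding of the probes to transcripts of such copies was not tested.

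The tract was visible at the annotated starts. RefSeq promoter sequences (GRCr8) were found for 63 of the 78 genes, as 64 starts. A tract, here a C at the annotated start followed by at least 4 C or T bases, lay at 24 of these starts (37.5%), against 2.63% of all 33469 promoters in the table. When the C could lie within 10 bases on either side, 48 of the 64 starts held one, against 28.9% of all promoters. By subunit, the tract lay at 17 of 39 large and 7 of 25 small subunit starts. It was 5 to 12 bases long, with a median of 7.5. None of the 35 initiation factor starts and none of the 14 starts of elongation, termination and recycling factors had it at the annotated position. Within 10 bases, 12 of the 35 and 4 of the 14 held one. At the annotated position it lay in 4 of 45 large subunit assembly starts and 1 of 18 starts of ribosomal protein chaperones and importers. It lay at 0 of 6 starts of ribosomal proteins with other symbols and at none in the remaining lists. How exact the annotated starts are was not tested. The windows below show the stalk proteins Rplp0 and Rplp1, the late-joining Rpl10, and Rps27 and Rps7, whose differences are among the larger ones below, each with the tract at the start, and then Rpl38, Rps6 and Rpl11, where it lay upstream of the annotated start or was not found. Each is 30 bases, 5′ to 3′, beginning 10 bases before the annotated start, with the tract in capitals.
Rplp0, chr12:46718371-46718400, minus strand: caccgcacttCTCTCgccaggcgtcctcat
Rplp1, chr8:71290853-71290882, minus strand: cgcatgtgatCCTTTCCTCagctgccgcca
Rpl10, chrX:157205840-157205869, plus strand: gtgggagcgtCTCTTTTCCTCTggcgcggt
Rps27, chr2:177964587-177964616, minus strand: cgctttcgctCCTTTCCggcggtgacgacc
Rps7, chr6:50999426-50999455, minus strand: agagctgtgtCTCTTTCTaagccggcactc
Rpl38, chr10:100200425-100200454, plus strand: ttCTTTTTCCgttgttcggtgctcgctcct
Rps6, chr5:106420521-106420550, minus strand: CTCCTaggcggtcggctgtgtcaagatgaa
Rpl11, chr5:153560783-153560812, minus strand: cttgaagcttgtttggtgctggggagcatc
In Rpl38 the tract ended before the annotated start, in Rps6 a short run lay 10 bases upstream, and in Rpl11 no match lay in the window searched.

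On the arrays, 62.4% to 64.5% of the 61657 non-control probes passed the scanner software's test for signal over background. The signal's 75th percentile ran from 464 to 558. Vehicle replicate 3 stood alone on its slide and scan day, with a median local background of 40 against 54 to 61. All 3 NTA arrays lay on a slide without vehicle arrays, and the effects of slide and treatment cannot be told apart. All 10 hepatocyte markers were well above background on every array, with group mean log2 levels from 2.30 to 10.28. Their median log2 difference between the groups was −0.13. For the marker lists of other cells, none of whose genes passed in limma, the values were as follows. The median log2 difference was 0.73 for cell cycle genes, 0.74 for B and plasma cells, 0.54 for sinusoidal endothelium and 0.53 for erythroid cells. It was 0.35 for Kupffer cells, 0.13 for biliary cells, 0.092 for T and NK cells and −0.12 for stellate cells. In bulk liver, a change in the number of cells of a type and a change in RNA per cell cannot be told apart. The part of these cells in the ribosomal protein signal was not tested.

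Ribosomal protein transcripts differed little between the groups. A level here is the log2 signal of the gene's brightest probe, scaled so that 0 is the 75th percentile of its array. No member passed at a Benjamini-Hochberg adjusted p under 0.05 in limma, where 9 of 30353 features did (0.0297%), and adjusted p over the 73 genes ran from 0.676 to 1.00. At an unadjusted p under 0.05 there were 0 members in either direction, against 7.57% of all features, 3.66% higher and 3.91% lower with NTA. Among the brightest 10% of features, which hold 70 of the 73 members, that share was 3.52%. With trend and robust variance moderation, 0 members passed and 1 had an unadjusted p under 0.05. The log2 differences, NTA minus vehicle, ran from −0.43 to 0.36 with a median of −0.028. Over all features the median was −0.027. Among the members 56 of 73 (76.7%) differed by less than 0.1 on the log2 scale, against 40.0% of all features, and 0 by more than 0.5, against 7.36%. These shares were not taken for the brightest 10% alone. The median standard error was 0.11, against 0.15 over all features and 0.12 over the brightest 10%. The 95% interval of the difference lay within −0.5 and 0.5 for 69 of the 73 genes, and the 4 exceptions were Rpl3l, Rps25, Rpl13 and Rpl19.

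**Figure D1:**
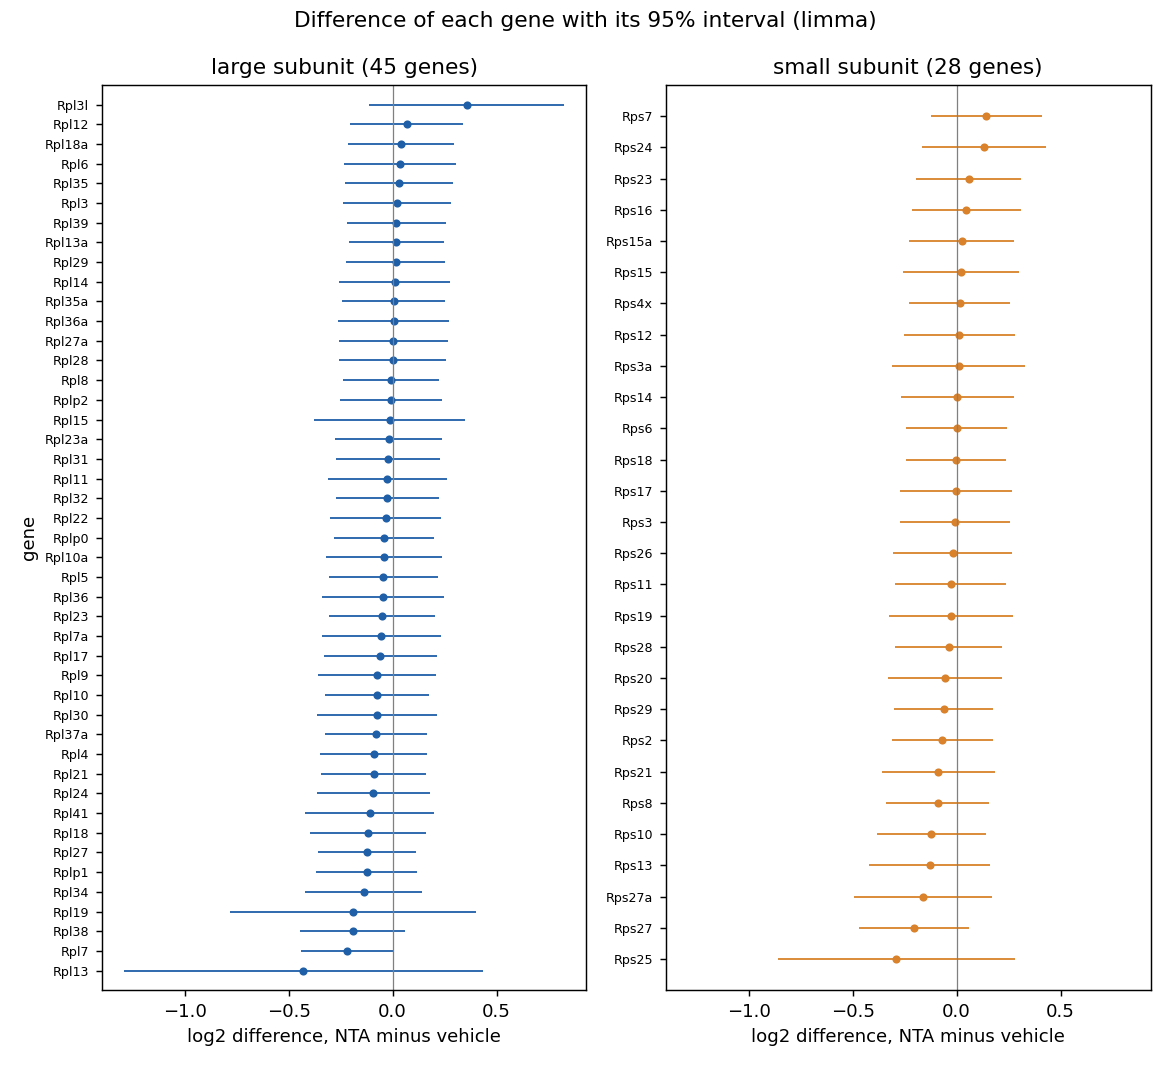
Log2 difference between NTA and vehicle (x axis) for each of the 73 genes (y axis), large subunit on the left and small on the right; points are limma estimates from 3 rats per group and bars their 95% intervals. Every interval spans 0, that of Rpl7 reaches only to 0.0080, and the widest belong to Rpl13, Rps25, Rpl19 and Rpl3l.

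Both subunits gave similar values. In the large subunit 13 genes lay above and 32 below 0 (28.9% above), with a median log2 difference of −0.042. Above 0 lay 43.9% of all features and 29.4% of the brightest 10%, the latter with a median of −0.057. In the small subunit 11 lay above and 17 below 0 (39.3% above), with a median of −0.013. The difference between these medians, large minus small, was −0.029. On single arrays, each gene was set against its own vehicle mean and the median taken per subunit. For the large subunit these medians were −0.084, 0.0075 and 0.079 with vehicle and 0.060, −0.11 and −0.045 with NTA. Small subunit medians were −0.076, −0.0070 and 0.10 with vehicle and 0.071, −0.095 and −0.046 with NTA. Both subunits thus had the same order of arrays, and the groups overlapped. Large minus small on each array was −0.0076, 0.015 and −0.026 with vehicle and −0.012, −0.018 and 0.00076 with NTA, a mean of −0.0064 ± 0.020 against −0.0097 ± 0.0097 (SD, n = 3 each). On each array the subunit medians lay closer to each other than the highest and lowest arrays lay within either subunit.

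Most of the family shifted together from array to array. Vehicle replicate 3 was the highest of the 6 arrays for 37 of the 73 genes and NTA replicate 1 for 26. The lowest array was NTA replicate 2 for 38 genes and vehicle replicate 1 for 21. Over all features these arrays were highest for 25.2% and 13.6% and lowest for 18.4% and 16.0%. Relative to the vehicle mean, 69 of 73 genes lay below 0 on vehicle replicate 1 and 69 above 0 on vehicle replicate 3. On the NTA arrays 56 lay above 0 in replicate 1, and 67 and 58 lay below 0 in replicates 2 and 3. The median over all 73 was 0.0036 ± 0.087 with vehicle and −0.029 ± 0.087 with NTA (SD, n = 3 each), so the group difference was smaller than the spread within either group. The members scattered little around that shift: 58 to 69 of the 73 lay within 0.1 of their array's median.

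**Figure D2:**
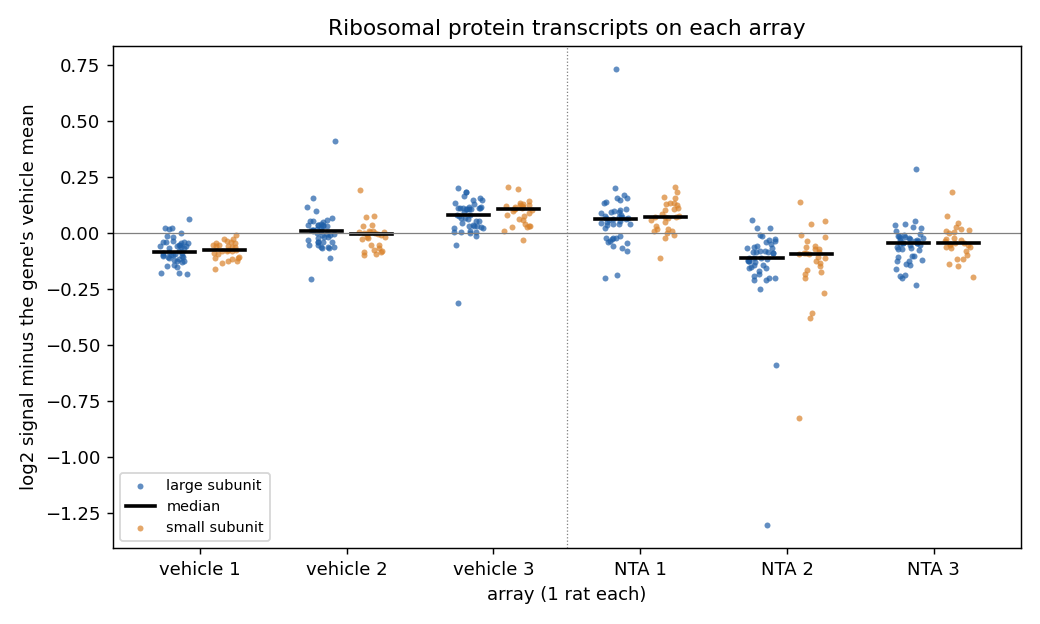
Log2 signal of each ribosomal protein gene minus its mean over the 3 vehicle arrays (y axis) on each of the 6 arrays (x axis), large and small subunit in separate colours, with black bars at the medians. Most genes lie above 0 on vehicle replicate 3 (69 of 73) and NTA replicate 1 (56) and below 0 on vehicle replicate 1 (69) and NTA replicate 2 (67), and the lowest point, −1.30 on NTA replicate 2, is Rpl13.

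Other strongly hybridising features shared part of that shift. Of the 73 member probes 70 were among the brightest 10% of features, all but Rpl3l, Rpl23a and Rps26. For the other 2966 of these bright features the array medians were −0.067, −0.0052 and 0.062 with vehicle and −0.010, −0.084 and −0.071 with NTA. The ribosomal proteins lay within 0.032 of these values on 5 arrays and 0.075 above them on NTA replicate 1. After quantile normalization, which gives every array the same distribution of signals, the member medians were −0.014, −0.0088 and 0.030 with vehicle and 0.063, −0.032 and 0.025 with NTA. What sets these shifts was not tested. In the main values 32.9% of the members lay above 0, against 43.9% of all features and 29.4% of the brightest 10%, members included. Of all features, 47.8% lay above 0 after quantile normalization and 36.7% with normexp. The count of members by sign, 24 above and 49 below 0 in the main values, became 44 and 29 after quantile normalization and 35 and 38 with normexp. It was 25 and 48 after centring on the median and 23 and 50 from the deposited table. With scan day as a block, which leaves the 5 arrays of the first day to decide, it was 43 and 30. The median difference was 0.020 after quantile normalization and 0.014 with scan day as a block. Without NTA replicate 2 it was 0.0091, with 41 genes above and 32 below 0. Without NTA replicate 1 it was −0.074, with 7 above and 66 below, and without vehicle replicate 1 it was −0.066, with 11 and 62.

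**Figure D3:**
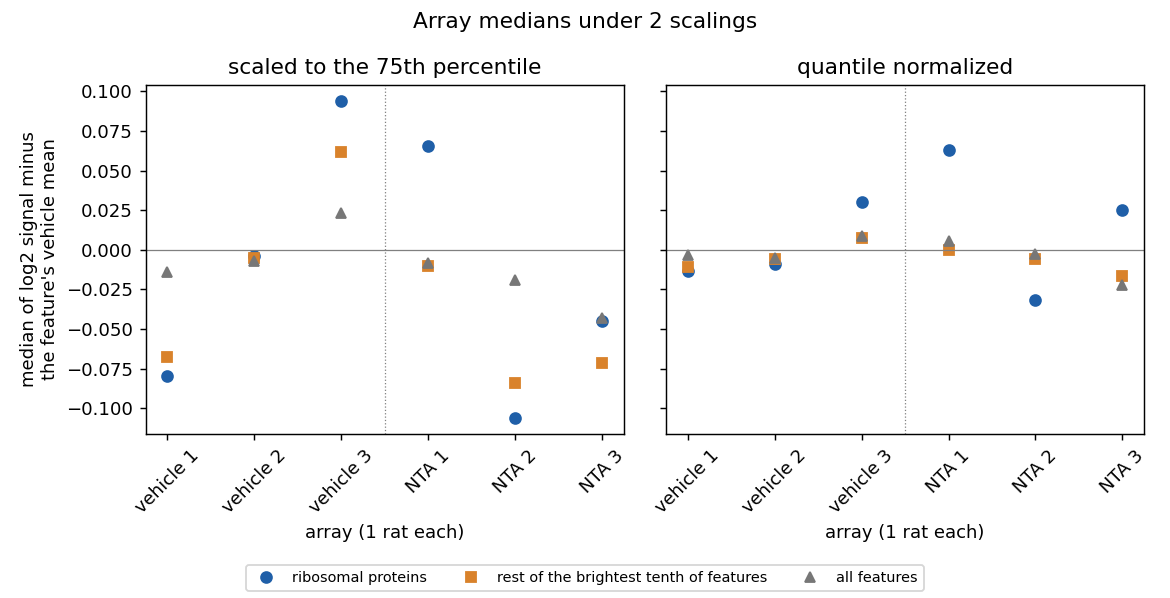
Median log2 signal minus the vehicle mean (y axis) on each array (x axis) for the ribosomal proteins, for the rest of the brightest 10% of features and for all features, scaled to the 75th percentile on the left and quantile normalized on the right. On the left the ribosomal proteins lie near the other bright features on 5 arrays and 0.075 above them on NTA replicate 1, and their spread over the arrays is smaller on the right.

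Groups did not overlap for 4 members, all lower with NTA (5.48%), against 8.03% of all features in that direction, and for 0 in the other, against 5.57%. Among the brightest 10% of features, 3036 in number, 295 were lower and 84 higher with NTA without overlap. The 4 members were Rpl7, Rps27, Rpl38 and Rpl27. Rpl7, a large subunit protein that contacts the ribosomal RNA, was at 7.04, 7.12 and 7.09 with vehicle and 6.88, 6.83 and 6.88 with NTA. It had the smallest p of the family, with a log2 difference of −0.22 (SE 0.094; limma, adjusted p = 0.676; 95% interval −0.44 to 0.0080). Every NTA rat lay below every vehicle rat, but the gap was small and the other 2 probes of Rpl7 gave −0.050 and 0.069. The mean over its probes gave −0.066.

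Rps27, a small subunit protein with a zinc finger, was at 7.47, 7.50 and 7.55 with vehicle and 7.39, 7.15 and 7.36 with NTA. Its log2 difference was −0.21 (SE 0.11; limma, adjusted p = 0.727), and its other probes gave −0.090 and −0.084. Rpl38, a small large-subunit protein whose loss in mice alters the axial skeleton, was at 7.63, 7.85 and 7.72 with vehicle and 7.55, 7.58 and 7.50 with NTA. That is a log2 difference of −0.19 (SE 0.10; limma, adjusted p = 0.732), and all 5 of its probes were below 0. For Rpl27, another large subunit protein, the arrays read 6.51, 6.62 and 6.64 with vehicle and 6.51, 6.42 and 6.47 with NTA, a log2 difference of −0.12 (SE 0.098; limma, adjusted p = 0.810). Its 4 probes ran from −0.17 to −0.060. With normexp background correction Rpl7, Rpl38, Rps27 and Rps7 had an unadjusted p under 0.05, at −0.26, −0.27, −0.32 and 0.27 (adjusted p 0.43 to 0.44). In that setting 10.8% of all features had an unadjusted limma p under 0.05.

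On the other side of 0, Rps7, a small subunit protein whose gene is mutated in some families with Diamond-Blackfan anaemia, was at 6.39, 6.51 and 6.61 with vehicle and 6.71, 6.55 and 6.69 with NTA. Its log2 difference was 0.14 (SE 0.11; limma, adjusted p = 0.806) and that of its other probe −0.019. Rps24, mutated in the same anaemia, was at 6.13, 6.48 and 6.26 with vehicle and 6.47, 6.43 and 6.36 with NTA (log2 difference 0.13, SE 0.12), and its other probe gave −0.024. In both genes the groups overlapped. Rpl12, Rps23 and Rps16 followed with log2 differences of 0.069, 0.058 and 0.047. Rps23 sits at the decoding centre. The other probes of Rpl12 ran from −0.017 to 0.16 and those of Rps23 from −0.15 to −0.016.

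Rpl3l had the highest log2 difference of the 73 genes. It is the paralog of Rpl3 that replaces it in striated muscle, and its probe read −2.56, −2.22 and −2.34 with vehicle and −1.64, −2.32 and −2.09 with NTA. NTA replicate 1 was the high array, and the groups overlapped (log2 difference 0.36, SE 0.20; limma, adjusted p = 0.732; 95% interval −0.11 to 0.83). A second Rpl3l probe was not well above background on any array. Rpl3 itself, at the peptidyl transferase centre, was at 6.24, 6.17 and 6.12 with vehicle and 6.33, 6.14 and 6.12 with NTA, a log2 difference of 0.021 (SE 0.11). The paralogs Rpl10l and Rpl39l were not analysed here.

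The stalk of the large subunit, which recruits the translation factors, is made of Rplp0, Rplp1 and Rplp2. Rplp0, often used as a reference gene, was at 8.69, 8.79 and 8.75 with vehicle and 8.78, 8.62 and 8.71 with NTA (log2 difference −0.042, 95% interval −0.28 to 0.20). Rplp1 was at 8.75, 8.85 and 8.85 with vehicle and 8.78, 8.63 and 8.68 with NTA (log2 difference −0.12, 95% interval −0.37 to 0.12). Rplp2 was at 7.99, 7.95 and 8.09 with vehicle and 8.07, 7.92 and 8.002 with NTA (log2 difference −0.0090, 95% interval −0.25 to 0.24). Groups overlapped for all 3. Rpl5 and Rpl11, which together carry the smallest ribosomal RNA and can bind the p53 regulator Mdm2, had log2 differences of −0.044 and −0.024. Their 95% intervals ran from −0.31 to 0.22 and from −0.31 to 0.26.

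Elsewhere in the large subunit, Rpl10, one of the last proteins to join, was at −0.075 (95% interval −0.33 to 0.18). Rpl39, near the exit tunnel, was at 0.019 and Rpl22, which is dispensable for the ribosome itself, at −0.033. Rpl13a, also known as a translational silencer in inflammation, was at 0.019 and Rpl41, the smallest ribosomal protein, at −0.11. In the small subunit, Rps6, the substrate of S6 kinase, was at 8.10, 8.19 and 8.19 with vehicle and 8.23, 8.06 and 8.18 with NTA. Its log2 difference was 0.00036 (95% interval −0.24 to 0.24). Rps19 and Rps14, both linked to inherited or acquired anaemia, were at −0.029 and 0.0036, Rps3, at the mRNA entry, at −0.0065 and the X-linked Rps4x at 0.015. These 10 genes had limma adjusted p between 0.871 and 0.999.

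Some ribosomal proteins hold a zinc ion, and NTA binds zinc. The ones named here for that reason, chosen after their values were seen, were Rps27 (above), Rps27a at a log2 difference of −0.16 (SE 0.14; 0.070 with normexp), Rps29 at −0.061, Rps26 at −0.019, Rpl37a at −0.078 and Rpl36a at 0.0052. Rps27a, made as a fusion with ubiquitin, was at 6.99, 7.12 and 7.24 with vehicle and 7.12, 6.74 and 7.002 with NTA, with NTA replicate 2 the low array. Except for Rps27 the groups overlapped in each of these genes. A link between zinc and these transcripts was not tested.

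A few single spots stood apart while other probes of the gene did not. Rpl13, singled out after its values were seen, had the lowest difference of the family, −0.43 (SE 0.36). It was at 7.56, 7.60 and 7.63 with vehicle and 7.74, 6.29 and 7.47 with NTA, so 1 array, NTA replicate 2, was low. The second probe of Rpl13 read 7.13 on that array and 7.31 and 7.10 on the other NTA arrays, and without NTA replicate 2 the difference was 0.0098. Rps25, needed for initiation at some viral RNAs, was at 4.93, 5.05 and 5.16 with vehicle and 5.10, 4.22 and 4.95 with NTA (log2 difference −0.29, SE 0.24). Its other probe gave −0.11, and without NTA replicate 2 the difference was −0.021. For Rps14 the brightest probe differed by 0.0036 and the second by −0.35, reading 4.93 on NTA replicate 2 against 6.10 to 6.24 on the other arrays. Rpl19, also chosen after its values were seen, scattered on its brightest probe, from 7.43 to 8.15 with vehicle and 7.16 to 7.80 with NTA, while its other 3 probes gave differences from −0.042 to 0.027.

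Across the 218 member probes past the background filter, the median log2 difference was −0.031, with 65 above and 153 below 0. Of 67 genes with several such probes, 33 had all of them on the same side of 0, and the probes of 43 lay within 0.1 of each other. In 4 genes, Rpl13, Rps16, Rpl36a and Rps14, they were more than 0.3 apart. In Rps16 the low probe, at −0.57, was highest on vehicle replicate 2, which read 2.42 against 1.39 and 1.47 on the other vehicle arrays, and its 3 brighter probes gave 0.047 to 0.095. Measured against the probe's vehicle mean and the array's median of member probes, 5 probes fell more than 0.5 low on NTA replicate 2, 1 each on vehicle replicate 3 and NTA replicate 1, and 0 on the other 3 arrays. On the high side it was 1 probe each on vehicle replicate 2 and the 3 NTA arrays, and 0 on the other 2.

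**Figure D4:**
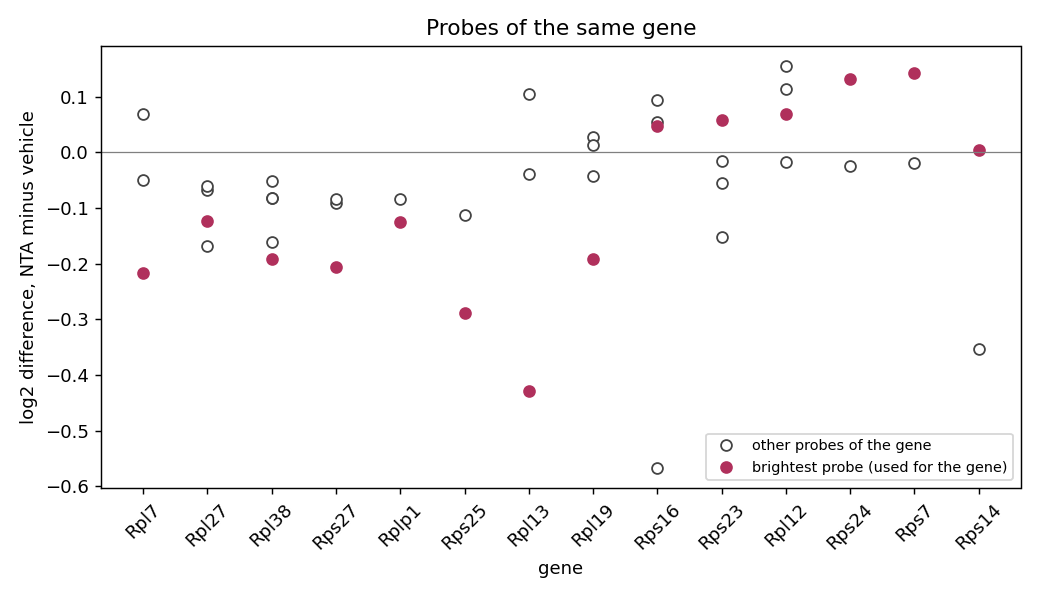
Log2 difference between NTA and vehicle (y axis) for each probe past the background filter of 14 ribosomal protein genes (x axis); filled points are the brightest probe, used for the gene, and open points its other probes. All probes of Rpl27, Rpl38, Rps27, Rplp1 and Rps25 lie below 0, while those of Rpl7, Rpl13, Rps24 and Rps7 lie on both sides.

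Ribosomal proteins whose symbols fall outside the pattern gave differences of the same size. Rpsa, which is also the precursor of a laminin receptor, was at −0.046, Fau, made as a fusion with a ubiquitin-like protein, at −0.071, the scaffold Rack1 at 0.078 and the Rpl22 paralog Rpl22l1 at −0.028. None of these 4 passed in limma (adjusted p 0.901 to 0.980).

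The genes that build and drive ribosomes were listed by role. Together with the 5 tested ribosomal proteins outside the symbol pattern they made 177 tested genes. In limma 0 of the 177 passed, in either direction. At an unadjusted p under 0.05 there was 1, against 7.57% of all features. That 1 was Rrs1, a factor of large subunit assembly, at 0.41, 0.17 and 0.53 with vehicle and 1.25, 0.75 and 0.67 with NTA (log2 difference 0.52, SE 0.19; limma, adjusted p = 0.615). Groups did not overlap for 4 of the 47 genes of that list, Rrs1, Gar1 and Nop2 higher and Rpf1 lower with NTA (8.51%, against 13.6% of all features in either direction). Ppan of the same list was at 0.32 (SE 0.17). Large subunit assembly as a list had 28 of 47 genes above 0 and a median of 0.042. Of all features 43.9% lay above 0, and of all named genes 48.7%, the latter with a median of −0.0060. In small subunit assembly 19 of 36 lay above 0, with a median of 0.014, and the 2 with the smallest p were Utp11 at −0.28 (SE 0.13) and Pdcd11 at 0.16 (SE 0.096).

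RNA polymerase I and rDNA transcription had 12 of 17 genes above 0, with a median of 0.034, Polr1b, a core subunit, at 0.18 (SE 0.11) and Taf1c at 0.14 (SE 0.11). In initiation factors 9 of 32 lay above 0, with a median of −0.098. Eif3h and Eif3b, subunits of the largest initiation factor, were at −0.21 (SE 0.11) and −0.22 (SE 0.12). Groups did not overlap for 5 of the 32 initiation factor genes, Eif3h, Eif3b, Eif3a and Eif3m lower and Eif4g3 higher with NTA (15.6%, against 13.6% of all features in either direction). Apart from Rrs1, Eif3h and Eif3b, the non-overlapping genes of these 2 lists are named after their values were seen. Elongation, termination and recycling factors had 4 of 12 above 0 and a median of −0.066, with Eef1b2 at −0.18 (SE 0.12) and Eef1e1 at 0.17 (SE 0.14). For chaperones and importers of ribosomal proteins it was 3 of 12 and −0.027, with Naca at −0.16 (SE 0.10) and Ipo9 at 0.17 (SE 0.11). In mTOR and TOP mRNA control 10 of 16 lay above 0, with a median of 0.030. There Castor1, an arginine sensor of mTORC1, was at 0.31 (SE 0.15) and Eif4ebp1, the translation repressor that mTOR phosphorylates, at 0.25 (SE 0.15). These named genes had limma adjusted p between 0.615 and 0.825.

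Members with and without the tract at the annotated start had similar differences between the groups. The median log2 difference was −0.023 over the 23 tested genes with it and −0.027 over the 36 whose annotated start lacked it. Of the 64 member starts, however, 24 held the tract at the start and 48 held one within 10 bases. Many genes counted as lacking it thus had one nearby, so the split cannot separate genes with a tract from genes without one.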

How the data were processed

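Each Cy3 array was read by Feature Extraction. The submitters' processing notes give its version as 10.7 and the headers as 10.7.1.1. Per the file headers the array is design 035170 on build rn4. The deposited scanner files hold each spot's background-subtracted intensity. The authors' deposited table holds a linear ratio, that signal over the array's 75th percentile, which 100.0% of probes matched.

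Main values were log2 processed signal minus log2 of the array's 75th percentile over non-control probes. Spots flagged as outliers were set to missing. Probes well above background on all 3 arrays of a group were kept, named by RefSeq accession (GRCr8), and the brightest probe stood for a gene. This left 30353 features, 11251 of them named genes. Because probes differ in binding, levels of different genes were not compared. limma 3.58.1 (R 4.3.3) was fitted across all features (two-sided, Benjamini-Hochberg) and checked on simulated data. With 3 against 3, the smallest exact permutation p is 0.1. The number of arrays limits the precision.

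Members and gene lists were chosen with earlier results of these data known. Named genes were the 6 per direction with the smallest p, a set fixed by role, and 2 per list. Some genes of these lists are not reported here. No protein sequences were used here. The normexp alternative used median spot signals, since mean signals are not among the columns.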

Additional observations from a re-analysis of the deposited data

How the results depend on the processing

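No member and no gene of the pathway lists passed limma's adjusted threshold in the main values, in the 11 alternatives on all arrays or in the 6 leave-outs. Scan day as a block and the leave-out of vehicle replicate 3, alone on its day, are the same fit and not separate checks. The medians of all members, of the large and of the small subunit moved by less than 1 SD of the arrays throughout. With 1 array left out they ran from −0.074 to 0.014, from −0.080 to 0.0067 and from −0.067 to 0.039. Large minus small was −0.056 with normexp, −0.0036 with quantile normalization and 0.0082 when probes of a gene were averaged, and −0.034 to −0.012 in the leave-outs. Members at an unadjusted p under 0.05 numbered 4 with normexp, 1 without the filter on dim probes, 1 with trend and robust, and 0 to 1 in the leave-outs. Of all features the share was 10.8% with normexp, 8.03% without the filter, 7.36% with trend and robust and 6.07% to 8.45% in the leave-outs. Features called, 9 in the main values, ran from 1 to 8 in the leave-outs, with 4 without NTA replicate 1 and 1 without NTA replicate 2. With the replicate number as a block there were 0 features called and 0 members called; deviations of same-numbered rats correlated at 0.17, −0.0064 and −0.075, so the numbers were not taken as pairs.

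Signs were followed only for the genes whose difference is given above, not for every member, here and in the leave-outs. Over all members the number above 0 was 24 in the main values, 44 with quantile normalization and 7 without NTA replicate 1. Signs turned in the genes below, none of them called. Of these Rps27a (−0.16), Taf1c (0.14) and Rpl41 (−0.11) were more than 0.1 from 0 in the main values on all arrays. With normexp Rpl5 was at 0.12, Rpl10 at 0.055, Rpl13a at −0.043, Rps27a at 0.070, Rps3 at 0.071, Rps14 at −0.0061, Rps19 at 0.14, Rpl22l1 at 0.028 and Rpl36a at −0.021. With quantile normalization Rplp0 was at 0.0021, Rplp2 at 0.021, Rpl5 at 0.0058, Rpl11 at 0.028, Rpl22 at 0.020, Rpl41 at 0.0058, Rps3 at 0.059, Rps19 at 0.016, Rpsa at 0.0026, Rpl22l1 at 0.032 and Rps26 at 0.019. With probes averaged Rps23 was at −0.041, Rps16 at −0.092, Rpl13a at −0.011, Rps6 at −0.0068, Rps14 at −0.18, Rps19 at 0.0093, Rpsa at 0.0024, Rpl22l1 at 0.033 and Taf1c at −0.0071. With scan day as a block Rplp2 was at 0.031, Rpl5 at 0.0093, Rpl11 at 0.057, Rpl3 at −0.0070, Rpl22 at 0.023, Rps3 at 0.045, Rps19 at 0.069, Rpsa at 0.020 and Rps26 at 0.034. From the deposited table Rps6 was at −0.00030. The cause was not tested. Since the scan-day fit is also the leave-out of vehicle replicate 3, its turned signs recur in the leave-out ranges.

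With 1 array left out, the sign also turned in Rpl11 (−0.087 to 0.057), Rpl13 (−0.72 to 0.0098), Rpl13a (−0.0084 to 0.047), Rpl19 (−0.35 to 0.013), Rpl22 (−0.096 to 0.023), Rpl22l1 (−0.17 to 0.065), Rpl3 (−0.045 to 0.060), Rpl36a (−0.050 to 0.061), Rpl39 (−0.011 to 0.053), Rpl5 (−0.098 to 0.0093), Rplp0 (−0.080 to 0.00014), Rplp2 (−0.046 to 0.031), Rps14 (−0.036 to 0.071), Rps19 (−0.078 to 0.069), Rps26 (−0.096 to 0.044), Rps3 (−0.063 to 0.045), Rps4x (−0.022 to 0.055), Rps6 (−0.035 to 0.048) and Rpsa (−0.10 to 0.020).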
